A study of Mus musculus with 6 samples.

Results

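A small set of stromal cells in the small intestine of Flare-TSLP mice carried the transcripts of the chemokines Cxcl10 and Ccl2 together. The members were chosen by their counts of unique molecular identifiers (UMIs) of 5 genes, the tags that mark single captured transcripts. A member had at least 3 UMIs of Cxcl10, at least 3 UMIs of Ccl2 and at least 1 UMI of Pdgfra, the platelet-derived growth factor receptor that marks gut fibroblasts. It had 0 UMIs of Ptprc, which encodes the leukocyte antigen CD45, and 0 UMIs of Prox1, the lymphatic endothelial transcription factor. The rule found 571 members among 76832 kept barcodes of the 4 small intestine libraries. The comparison cells, called reference cells here, were the 49380 kept barcodes of the same libraries with at least 1 Pdgfra UMI and 0 Cxcl10 UMIs.

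The mice carried the Flare-Tslp allele, in which tdTomato, a red fluorescent protein, is translated from the transcript of the Tslp locus behind an internal ribosome entry site. According to the methods of the study, the allele came from 1 C57BL/6 embryonic stem cell clone, and offspring were crossed back to C57BL/6 mice. The allele keeps the coding sequence of Tslp, a cytokine of barrier tissues. Live tdTomato+ cells were sorted from lamina propria of the proximal jejunum (2 libraries), the distal ileum (2 libraries), the cecum (1 library) and the large intestine (1 library). All 6 libraries were of this genotype with no treatment, so that no sample without the allele or without the sort was compared here. The labels give neither the age nor the sex of the mice, which per the study's methods were adults of both sexes. Hashtag antibodies, 3 per library, marked the cells so that samples could be pooled, and no source used here pairs a hashtag with a mouse. A library was therefore the replicate, and every p-value measures the spread between libraries, which the labels do not tie to separate animals.

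Chemokines are small secreted proteins that steer leukocytes along gradients. Cxcl9, Cxcl10 and Cxcl11 bind Cxcr3, the receptor of activated T cells and natural killer cells, and Ccl2 and Ccl7 bind Ccr2 on monocytes. Cxcl1, Cxcl2 and Cxcl5 act on Cxcr2 of neutrophils. Interferon-gamma acts on genes with a gamma-activated site (GAS), type I interferon acts on genes with an interferon-stimulated response element (ISRE), and tumor necrosis factor, interleukin-1 and microbial products act through NF-kB. Fibroblasts of the gut wall carry receptors for all of these signals and are known as a source of chemokines in inflamed tissue.

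To show the elements that the field links with these genes, the 250 bases before the annotated start are given for 5 genes, from a RefSeq table on the build GRCm38.p6. Cxcl10 (chr5:92348890-92349139, minus strand) is a gate gene. Gbp5 (chr3:142496684-142496933, plus strand), a guanylate-binding protein, and Ifit1 (chr19:34640639-34640888, plus strand), an antiviral protein, stand for the interferon lists. Cxcl1 (chr5:90890995-90891244, plus strand) and Nfkbia (chr12:55492648-55492897, minus strand), the inhibitor that holds NF-kB in the cytoplasm, stand for the NF-kB list. Each sequence runs 5′ to 3′ on the strand of its gene and ends at the base before the start, and capitals mark a match to a motif on either strand.
Cxcl10: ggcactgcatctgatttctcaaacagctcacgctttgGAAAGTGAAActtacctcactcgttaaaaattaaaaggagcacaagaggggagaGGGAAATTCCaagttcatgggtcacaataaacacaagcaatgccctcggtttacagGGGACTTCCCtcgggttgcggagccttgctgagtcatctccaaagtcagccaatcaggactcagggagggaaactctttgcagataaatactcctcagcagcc
Gbp5: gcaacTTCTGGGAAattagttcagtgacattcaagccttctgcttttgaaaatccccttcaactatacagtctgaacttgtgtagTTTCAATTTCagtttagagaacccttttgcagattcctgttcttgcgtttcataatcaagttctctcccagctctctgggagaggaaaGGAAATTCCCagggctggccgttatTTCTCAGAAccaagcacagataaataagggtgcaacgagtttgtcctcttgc
Ifit1: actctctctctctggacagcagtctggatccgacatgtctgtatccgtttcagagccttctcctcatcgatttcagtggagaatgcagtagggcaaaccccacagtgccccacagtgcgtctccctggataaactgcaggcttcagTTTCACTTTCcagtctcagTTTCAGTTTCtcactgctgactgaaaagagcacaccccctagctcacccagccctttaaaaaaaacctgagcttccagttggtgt
Cxcl1: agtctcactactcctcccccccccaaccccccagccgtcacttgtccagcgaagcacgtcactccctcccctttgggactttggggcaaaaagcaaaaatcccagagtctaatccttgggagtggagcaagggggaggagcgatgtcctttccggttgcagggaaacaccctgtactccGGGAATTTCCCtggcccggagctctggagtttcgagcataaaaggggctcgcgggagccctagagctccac
Nfkbia: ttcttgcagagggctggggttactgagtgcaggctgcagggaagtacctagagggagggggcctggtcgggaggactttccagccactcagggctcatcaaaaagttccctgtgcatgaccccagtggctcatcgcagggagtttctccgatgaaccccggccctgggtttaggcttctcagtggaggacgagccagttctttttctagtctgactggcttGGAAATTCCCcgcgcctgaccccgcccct
Capitals in the Cxcl10 sequence mark 1 ISRE that begins 213 bases before the start and 2 matches to the NF-kB consensus that begin 159 and 103 bases before it. The Gbp5 window held all 3 motifs, with the ISRE at 165 bases, GAS at 245 and 52 bases and the NF-kB consensus at 77 bases before the start. Ifit1 held 2 ISREs, at 104 and 85 bases, and neither of the other motifs. Cxcl1 held an NF-kB run matched at 71 and 70 bases, in overlapping frames, and Nfkbia held 1 at 29 bases. The ISRE was searched as GAAANNGAAA, GAS as TTCNNNGAA and NF-kB by its consensus. Of the 27025 gene symbols with a window in that table, 3.46% held the ISRE, 8.13% GAS and 4.46% the NF-kB consensus. The window of Cxcl9 held none of the 3 motifs, which says only that these letters were not in that window, and Ccl2 and Ccl7 had no entry in the table.

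The members made up a share of kept barcodes that was below 1.2% in every small intestine library. In the proximal small intestine, 102 of 17282 kept barcodes in replicate 1 (0.590%, exact 95% binomial interval 0.481 to 0.716) and 73 of 17924 in replicate 2 (0.407%, 0.319 to 0.512) were members. In the distal small intestine, they were 252 of 21299 in replicate 1 (1.18%, 1.04 to 1.34) and 144 of 20327 in replicate 2 (0.708%, 0.598 to 0.834). Such intervals cover counting error only. Both distal shares lay above the 2 proximal ones, with means of 0.499% ± 0.129 and 0.946% ± 0.336 (SD, n = 2 libraries each). The difference of -0.447 percentage points gave p = 0.33 in a two-sided exact permutation test, which is the smallest value that 2 libraries against 2 can give. Of barcodes with a Pdgfra UMI alone, members were 0.787% and 0.670% in the proximal and 1.35% and 1.13% in the distal replicates 1 and 2. The same gate, applied to libraries that the rule leaves out, found 190 of 13951 kept barcodes in the cecum (1.36%, 1.18 to 1.57) and 257 of 11751 in the large intestine (2.19%, 1.93 to 2.47). Those cells were not members and had no replicate library.

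**Figure D1:**
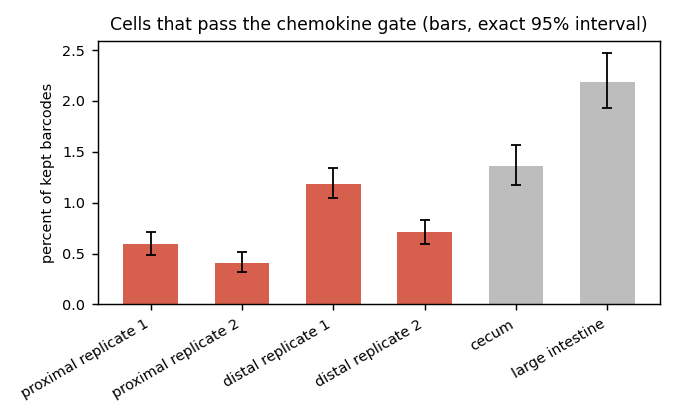
Percent of kept barcodes that pass the chemokine gate in each library (bars) with exact 95% binomial intervals (lines). The 4 small intestine libraries, in red, run from 0.407% to 1.18%, and the cecum and large intestine, in grey, stand at 1.36% and 2.19% and enter no test.

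Free RNA in the droplets can give a chemokine UMI to a cell that does not make it. The gate was therefore read in plasma cells, which should lack these stromal transcripts, taken as kept barcodes with at least 20 Jchain UMIs and 0 Pdgfra UMIs. Of 702 such barcodes in the small intestine libraries, 0 held 3 or more UMIs of both Cxcl10 and Ccl2. The limit of 0 Pdgfra UMIs left out plasma cells with Pdgfra from free RNA, so the count does not cover barcodes with a Pdgfra UMI. Their median depth was 12105 to 17479 UMIs per library, against 9518.5 to 12729 in the members of the small intestine libraries. Levels are given in CPM, the UMI count of a gene scaled to the same total for every sum. In the free RNA of the small intestine libraries, read from barcodes with at most 100 UMIs, Cxcl10 stood at 84.2 to 169 CPM and Ccl2 at 34.7 to 73.4 CPM. Pdgfra, of which a member needed only 1 UMI, was more abundant there, at 309 to 432 CPM.

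The members were somewhat deeper than the reference cells. Median UMIs per member were 10154.5 and 12729 in the proximal and 9518.5 and 11109.5 in the distal replicates 1 and 2, against 8736, 10421, 7790 and 9335.5 in reference cells. Scrublet, a caller of doublets (droplets with 2 cells), marked 11.8%, 2.74%, 9.52% and 10.4% of members and 11.4%, 10.2%, 9.94% and 15.4% of reference cells in the same order. More than 1 hashtag was called in 8.82%, 8.22%, 18.7% and 16.7% of members and in 9.33%, 8.68%, 14.0% and 14.9% of reference cells. Any pair of small intestine libraries shared 86 to 118 kept barcode sequences. The sequence of 11 members was also kept in another small intestine library, where 0 of them was a member. Members were found under each of the 3 hashtags in each library. In distal replicate 1, 115 of 196 members with a single hashtag carried HT0302 (58.7%, 51.4 to 65.6) and 20 carried HT0303 (10.2%, 6.35 to 15.3), while the reference cells stood at 38.1% and 29.3%. In the other 3 small intestine libraries, the share of each hashtag among members had an interval that held the reference share, except for HT0306 in distal replicate 2 (49 of 96 members, 51.0%, 40.6 to 61.4, against 36.3%).

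The gate genes are given as a description, since they chose the cells. Summed over the members of a library, Cxcl10 stood at 3701, 2600, 3916 and 2387 CPM in proximal replicates 1 and 2 and distal replicates 1 and 2, in the order kept throughout. Ccl2 stood at 1555, 1018, 2570 and 1200 CPM in members, and at 8.11, 11.7, 15.3 and 21.4 CPM in reference cells. Pdgfra was at 428, 372, 407 and 401 CPM in members and at 595, 493, 509 and 483 CPM in reference cells, which needed only 1 Pdgfra UMI as well. The median member carried 19 Cxcl10 UMIs and 10 Ccl2 UMIs, and 86 members had a single Pdgfra UMI. At the threshold, 103 members had exactly 3 UMIs of Cxcl10 or Ccl2, with medians of 6 Cxcl10 and 3 Ccl2 UMIs. Just outside it, 161 cells had at least 2 UMIs of both chemokines but exactly 2 of at least 1 of them, with medians of 5 and 2. Cxcl10 lies at chromosome 5, 92494497 to 92496748, on the minus strand of GRCm39 (mm39), between its neighbours Cxcl9 (92469206 to 92475945) and Cxcl11 (92507403 to 92513344). Ccl2 lies at chromosome 11, 81926397 to 81928279, on the plus strand, next to Ccl7 (81936532 to 81938351).

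The transcript of the sorted reporter was rare in members. A tdTomato UMI was found in 37 of 571 members and a Tslp UMI in 20. Per library, tdTomato stood at 7.84, 1.94, 8.40 and 5.71 CPM in members and at 3.22, 1.35, 5.69 and 1.99 CPM in reference cells. The level of tdTomato was higher in members of all 4 libraries (log2 change 1.03, SE 0.33, adjusted p = 0.044 by edgeR's quasi-likelihood test). That rested on few cells, as 8, 2, 18 and 9 members held a tdTomato UMI. Reference cells with one were 327 of 11864, 149 of 9835, 715 of 16471 and 209 of 11210. With a reference free of Ptprc and Prox1 UMIs, the log2 change was 0.98 (adjusted p = 0.046 by edgeR). Tslp was at 3.48, 1.94, 4.58 and 1.71 CPM in members and at 1.80, 0.669, 2.47 and 1.10 CPM in reference cells, and did not pass the test (log2 change 0.98, SE 0.46, adjusted p = 0.18).

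Markers placed the members among fibroblasts. All or all but 1 of the 571 members held UMIs of Col1a1, Col1a2, Col3a1 and Dcn, and Dcn, a matrix proteoglycan, stood at 9059 ± 1687 CPM (SD, n = 4) in members against 9842 ± 2050 in reference cells. The share of cells with such UMIs was not read in plasma cell barcodes, so it does not account for free RNA. Of 6 pan-fibroblast genes tested besides Pdgfra, Pdpn rose (log2 change 0.43) and Lum fell by 0.29. The lists of fibroblast subsets were mixed. Of 8 trophocyte genes (fibroblasts near the crypt base), C3 rose and Cd34, Ackr4, Dkk2 and Pi15 fell. Of 8 genes of subepithelial myofibroblasts or telocytes, Procr and Nrg1 rose and Sox6 and Bmp5 fell, and Foxl1, the telocyte transcription factor, had UMIs in 12 members. Of 8 villus tip telocyte genes, Tnc rose and Lgr5, Bmp7 and Ednrb fell. Cxcl13 rose and Vwc2 and Edil3 fell among 6 genes of Adamdec1+ lamina propria fibroblasts, while Adamdec1 itself was at 3450 ± 839 CPM in members and 3981 ± 1255 in reference cells. Ly6c1 rose and Clec3b, Dpt and Sema3c fell among 7 universal fibroblast genes. Of 6 pericyte genes, Notch3 rose and Rgs5 and Kcnj8 fell, and of 6 smooth muscle genes, Acta2 and Des rose. All these calls are by edgeR at an adjusted p under 0.05. With a reference free of Ptprc and Prox1 UMIs, Tnc (adjusted p = 0.14), Ednrb (0.11) and Kcnj8 (0.93) were not called, and Adamdec1 was called lower (log2 change -0.24, adjusted p = 0.034). Over the 20 settings tried besides the main one, the calls on Dkk2, Pi15, Procr, Vwc2, Ly6c1 and Des stood in each, and every other call on a fibroblast subset, pericyte or smooth muscle gene named here was lost in at least 1. Those on Cxcl13, Notch3 and Acta2 were lost by limma-voom, with no library block and with the replicate block in place of library, Cxcl13 also by DESeq2, Notch3 and Acta2 also with a gate of 5 UMIs, Acta2 also in cells of 5000 to 15000 UMIs and Notch3 also without proximal replicate 1.

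Of the markers of other cell types, more were lower than higher in members, and the rule removed cells with Ptprc or Prox1 UMIs from the members but not from the reference. Over 6 lymphatic endothelial genes, without Prox1, the summed level was 58.8 to 198 CPM in members and 241 to 1578 CPM in reference cells, and 6 of 6 tested genes fell. Blood endothelial genes summed to 38.8 to 292 CPM against 86.4 to 322 CPM, with Plvap higher and 4 of 7 lower. B and plasma cell genes summed to 35.4 to 566 CPM against 347 to 632 CPM, with 3 of 6 lower and Cd79b and Ms4a1 at 0 in members. T cell and ILC genes summed to 1.71 to 6.09 CPM against 5.04 to 7.09 CPM, with 0 of 6 past the test and Cd3e, Cd3d and Nkg7 at 0 in members, as well as Ptprc by the rule. Myeloid genes summed to 9.71 to 32.8 CPM against 14.0 to 53.2 CPM, with Lyz2 lower and Itgam at 0. Epithelial genes summed to 12.2 to 73.1 CPM against 31.3 to 152 CPM, with Defa24 and Lyz1 lower and Cdh1 at 0. Enteric glia genes summed to 1.94 to 12.2 CPM against 4.48 to 9.66 CPM with no call. Of 5 mesothelial genes, Wt1 alone was tested and rose, with UMIs in 16 members, while Msln, Upk3b and Lrrn4 were at 0. With a reference that also lacked Ptprc and Prox1 UMIs, 0 of 6 lymphatic, 0 of 4 B and plasma cell and 0 of 9 myeloid genes tested differed and 0 of 7 blood endothelial genes were lower, while 2 of 8 epithelial genes, Defa24 (log2 change -1.01, adjusted p = 0.00032) and Lyz1 (-1.51, adjusted p = 0.014), were still lower, and Plvap (0.86, adjusted p = 0.0061 by edgeR) and Wt1 (3.73, adjusted p = 5.1e-06) were still higher. Plvap had a higher CPM in members in 2 of 4 libraries, and its call was lost by limma-voom, with no library block, with the replicate block in place of library and without distal replicate 1.

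The members differed from the reference cells in many genes besides those of the gate. Of 17726 genes tested, 1361 were higher (7.68%) and 1552 lower (8.76%) in members (edgeR with library as a block, adjusted p under 0.05). The median log2 change of all genes tested was -0.07. The lower genes numbered 862 by limma-voom and 1034 by DESeq2, where the higher ones numbered 1327 and 1494, so that the direction with more calls turned with the tool. With no library block, 779 were higher and 594 lower, and after thinning to 2500 UMIs, 896 and 932. Of the edgeR calls, 1215 were higher and 1491 lower in 4 of 4 libraries, and 24 of the lower genes had no UMI in any member. Against the reference free of Ptprc and Prox1 UMIs, 1454 of 16939 genes were higher (8.58%) and 1480 lower (8.74%), and 1282 of the higher and 1174 of the lower calls were kept. The cecum and large intestine, which entered no test, were read in the same way. There 76.9% of the genes called higher were also higher in gated cells of both, against 19.7% of all genes tested, and 83.7% of those called lower were lower in both, against 45.8%. Those cells passed the same gate, and their reference also kept cells with Ptprc or Prox1 UMIs. Changes tied to the gate can therefore recur there, and that part was not tested.

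The genes with the largest rises were mostly chemokines and genes induced by inflammatory signals. Ubd, a ubiquitin-like modifier induced by cytokines, was at 51.4, 47.6, 90.5 and 37.1 CPM in members and at 0.682, 0.661, 1.32 and 0.990 CPM in reference cells (log2 change 5.97, SE 0.20, adjusted p = 5.2e-12 by edgeR). Saa3, an acute phase protein, was at 555, 325, 1221 and 405 CPM against 11.7, 14.4, 68.6 and 25.7 CPM (4.57, SE 0.19). The groups did not overlap for either gene, although Saa3 varied within the members and was highest in distal replicate 1. Gm16685, an annotated lncRNA, rose by 4.79 (SE 0.29), and Calhm6, a channel protein induced by interferon, by 4.34 (SE 0.15). The other 6 of the 10 largest rises among genes at 50 CPM or more were Cxcl2, Ccl7, Cxcl5, Cxcl9, Ccl5 and Gbp5, described with their lists.

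Of 12 CXC, CX3C and XC chemokine genes tested besides Cxcl10, 10 rose and none fell, with a median log2 change of 1.93. Cxcl9 was at 2198, 2198, 2072 and 1274 CPM in members and at 42.3, 28.5, 55.6 and 41.9 CPM in reference cells, with no overlap. Its log2 change was 5.57 (SE 0.17, adjusted p = 2.4e-12 by edgeR). Cxcl9 lies next to Cxcl10, whose UMIs the rule used, and the part of that choice in this rise was not tested. The transcript of Cxcl11 was far less abundant, at 6.09, 8.74, 19.1 and 13.7 CPM against 0.0526 to 0.133 CPM (7.15, SE 0.60). Its protein was not measured. Cxcl1, Cxcl2 and Cxcl5, which draw neutrophils, rose as well. Cxcl1 was at 602, 290, 1036 and 866 CPM in members and at 32.9, 35.6, 89.5 and 64.4 CPM in reference cells (3.68, SE 0.14). Cxcl2 was at 196, 39.8, 188 and 118 CPM against 1.04 to 2.90 CPM (6.37, SE 0.28), and Cxcl5 at 385, 431, 834 and 422 CPM against 5.25 to 17.3 CPM (5.58, SE 0.20). For all 3, the lowest member library lay above the highest reference library, with proximal replicate 2 lowest for Cxcl1 and Cxcl2. Cxcl2 had UMIs in 143 of 571 members. Cxcl12, the homeostatic chemokine of fibroblasts, was at 686, 739, 742 and 525 CPM in members and at 706, 739, 780 and 590 CPM in reference cells (log2 change -0.03, SE 0.07, adjusted p = 0.85). Cxcl14 and Cxcl16, which act on several leukocytes and on Cxcr6+ lymphocytes, rose by 1.12 and 1.07. Cxcl13, which acts on B cells, was at 156, 200, 325 and 33.7 CPM in members against 130, 94.0, 30.5 and 26.2 CPM in reference cells (1.44, SE 0.36, adjusted p = 0.011 by edgeR). Its groups overlapped and distal replicate 1 showed the widest gap, with 147 of the 851 Cxcl13 UMIs of that library's members in 1 cell. The call ended by limma-voom, by DESeq2, with no library block and with the replicate block in place of library.

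Of 10 CC chemokine genes tested besides Ccl2, 5 rose and 2 fell, with a median log2 change of 0.84. Ccl7 was at 145, 42.7, 257 and 219 CPM in members and at 2.02, 2.80, 3.08 and 3.74 CPM in reference cells (5.80, SE 0.26, adjusted p = 9.2e-11 by edgeR). Ccl5, which draws T cells, was at 32.2, 108, 120 and 10.8 CPM against 2.33 to 6.02 CPM (3.83, SE 0.30). Ccl19, the Ccr7 ligand of lymphoid stroma, was at 71.4, 82.5, 218 and 16.5 CPM against 5.39 to 14.9 CPM (3.21, SE 0.24). Distal replicate 2 was lowest for both and distal replicate 1 highest, and every member library lay above every reference library for its gene. Ccl11, which draws eosinophils, was even across libraries at 844, 1128, 1103 and 1127 CPM against 309 to 419 CPM (1.53, SE 0.08). Ccl25 was at 19.4 to 26.1 CPM in members and 21.6 to 24.5 CPM in reference cells (-0.05, SE 0.14, adjusted p = 0.89). Ccl4 and Ccl21a fell, neither with the reference free of Ptprc and Prox1 UMIs (adjusted p = 0.38 and 0.33). Of 13 chemokine receptor genes tested, only Ackr1 rose (1.30) and only Ackr2 and Ackr4, which scavenge chemokines, fell (by 1.93 and 0.54). Against the reference free of Ptprc and Prox1 UMIs, Ackr2 did not pass (log2 change 1.18, adjusted p = 0.46) and Ackr3 was called higher (0.39, adjusted p = 0.0087).

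**Figure D2:**
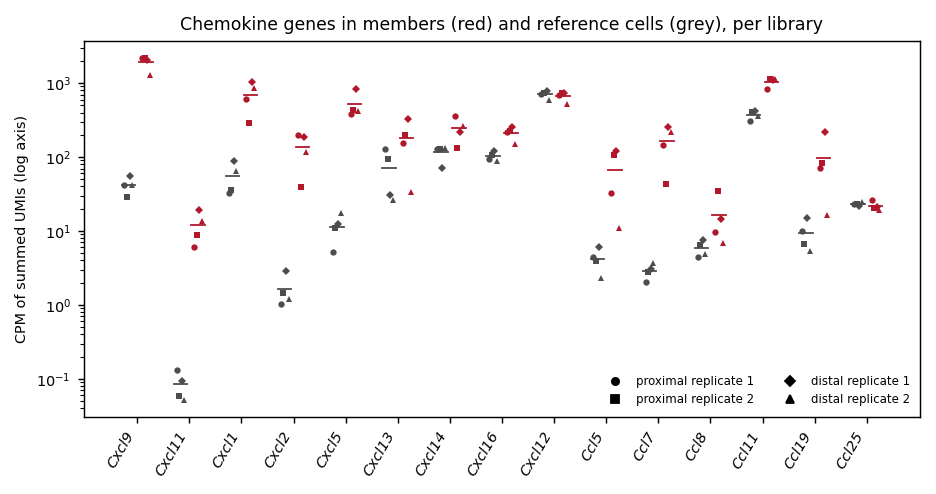
Chemokine genes in CPM of summed UMIs (log axis) in members (red) and reference cells (grey). Each symbol is 1 small intestine library and each line the mean of 4. The members' lowest library lies above the highest reference library for Cxcl9, Cxcl11, Cxcl1, Cxcl2, Cxcl5, Ccl5, Ccl7, Ccl11 and Ccl19, while Cxcl12 and Ccl25 overlap.

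Targets of interferon-gamma rose in members nearly throughout the list. The rule asked for 3 or more Cxcl10 UMIs in members and 0 in reference cells. Cxcl10 is itself induced by interferons, so the rule also selects on the interferon-gamma and antiviral lists. Through Cxcl10 or Ccl2, it may do so on class I and NF-kB genes too. The part of that choice in the direction of these lists was not tested. Of 29 tested, 27 rose and none fell, with a median of 2.16, against -0.07 over all genes. Gbp5 was at 627, 493, 517 and 434 CPM in members and at 35.6, 32.8, 39.4 and 41.8 CPM in reference cells with no overlap (3.83, SE 0.11, adjusted p = 1.4e-12 by edgeR). Gbp6 rose by 3.37 and Gbp4 by 3.36, and reads of the Gbp family may be split among near-identical copies. Ido1, which degrades tryptophan, rose by 3.26 on only 33 UMIs. Iigp1, a GTPase that attacks the vacuoles of pathogens, was the most abundant at 2408, 1992, 2153 and 2206 CPM against 447 to 586 CPM (2.13, SE 0.09). The transcription factors Irf1 (2.28) and Irf8 (1.65) and the class I activator Nlrc5 (1.71) rose, as did Cd274, which encodes the checkpoint ligand PD-L1 (2.37). Upp1 (0.86) and Ciita (-0.61) did not pass the test.

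Antiviral genes of the interferon response rose by less. Of 31 tested, 27 rose and none fell, with a median of 1.10. Ifit1 was at 53.1, 60.2, 51.6 and 90.2 CPM in members and at 11.6, 9.18, 11.8 and 11.9 CPM in reference cells (2.54, SE 0.15, adjusted p = 2.6e-09 by edgeR). Isg15, a ubiquitin-like protein, was at 122, 59.2, 115 and 136 CPM against 18.9 to 28.8 CPM (2.20, SE 0.11), and Mx1, a GTPase against viruses, rose by 3.60 from 0.963 CPM (mean of the reference libraries). Ifit3 rose by 2.19, with a near copy, Ifit3b, at 1.15. The abundant Ifi27l2a (693 ± 160 CPM in members, 619 ± 164 in reference cells, SD, n = 4) and Irf9 (54.5 ± 6.17 and 46.7 ± 2.17) did not pass the test.

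MHC class I presentation rose in full and class II did not. All 18 class I genes tested were higher in members, with a median of 0.81. Tap1, the peptide transporter, was at 202, 194, 184 and 139 CPM in members and at 50.5, 52.1, 56.5 and 61.9 CPM in reference cells (1.73, SE 0.11, adjusted p = 6.5e-09 by edgeR). The immunoproteasome subunits Psmb9 and Psmb10 both rose by 1.12, and H2-K1, a heavy chain, and B2m, the light chain, by 0.55 and 0.53. H2-Q6 rose by 1.22, among H2-Q genes that share sequence. Of 12 class II and costimulation genes, Cd40 rose, from 6.90 ± 1.10 to 38.1 ± 9.0 CPM (SD, n = 4), and 4 fell, Cd86, H2-Eb1, H2-Aa and Cd74. Against the reference free of Ptprc and Prox1 UMIs, 3 of 10 tested were higher and none lower: Cd40, Cd74 (log2 change 0.89, adjusted p = 0.00079) and H2-Ab1 (1.13, adjusted p = 0.011). The class II direction therefore turned with the reference, and the listed class II genes stood at 24.0 CPM or less in members.

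Targets and regulators of NF-kB rose with a median of 1.71, 29 of 33 tested higher and 1 lower (Cd83). Against the reference free of Ptprc and Prox1 UMIs, 31 were higher and 0 lower, and Cd83 did not pass (adjusted p = 0.56). Nfkbia was at 967, 859, 1361 and 1004 CPM in members and at 232, 245, 289 and 236 CPM in reference cells (2.09, SE 0.08, adjusted p = 2.6e-11 by edgeR). Nfkbie, another inhibitor, rose by 3.37, and Tnip1 and Tnfaip3, which shut the pathway off, by 2.83 and 2.67. The adhesion molecules Vcam1 (646, 629, 465 and 507 CPM against 80.7 to 140 CPM) and Icam1 (601, 526, 600 and 418 CPM against 159 to 216 CPM) rose by 2.38 and 1.65. Sod2, the mitochondrial superoxide dismutase, rose by 2.61, Ptgs2, which makes prostaglandins, by 2.37 and Csf1, the macrophage growth factor, by 1.78. Il6 rose by less (0.98, SE 0.17), at 24.4, 59.2, 35.5 and 37.1 CPM against 16 to 25.1 CPM, and proximal replicate 1 lay within the range of reference libraries. Lcn2, an iron-binding protein, and Cebpd did not pass, and Lcn2, at a log2 change of -0.17, was called higher with the reference free of Ptprc and Prox1 UMIs (2.13, adjusted p = 0.00072). Inhibitors of cytokine signalling rose too, 13 of 15 tested with a median of 0.99, led by Tnip1, Socs1, the feedback inhibitor of interferon receptors (2.76), Tnfaip3 and Nfkbia, of which 3 also belong to the NF-kB list. Dusp1 (0.32) and Pias1 (-0.07) did not pass, but with that reference Dusp1 was called higher (0.41, adjusted p = 0.030).

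Receptors and sensors of these signals were higher in part, 18 of 31 tested, with 2 lower and a median of 0.61. Tlr2, a receptor of bacterial lipoproteins, was at 45.3, 36.9, 29.0 and 21.1 CPM against 6.27 to 8.81 CPM (2.09, SE 0.17), and Sting1, a sensor of cytosolic DNA signals, rose by 1.79. Both chains of the interferon-gamma receptor rose, Ifngr1 by 0.89 and Ifngr2 by 1.02, as did the kinase Jak2 (1.45) that they use. Il13ra1 (1.47, SE 0.12) and Il4ra (0.61, SE 0.10), the chains of the type 2 receptor for interleukins 4 and 13, were both higher. The receptors Il1r1 (-0.08, SE 0.08) and Tlr4 (0.05, SE 0.12) did not pass, at 259 ± 40.9 and 55.1 ± 15.0 CPM in members (SD, n = 4). Of 16 inflammatory cytokine genes, 9 had no UMI in any member, Tnf had 5 UMIs in all and Il1b 42, and of 7 tested none rose and Ltb fell. With the reference free of Ptprc and Prox1 UMIs, 4 were tested, Ltb not among them, and 0 were called. Ifng was among the genes not tested. Of 8 alarmins and lymphocyte survival factors, Il15 rose (0.93, SE 0.10), at 83.6, 90.3, 66.1 and 74.7 CPM against 34.0 to 50.5 CPM, and Tnfsf13b by 0.34, a call that was lost with the reference free of Ptprc and Prox1 UMIs (0.25, adjusted p = 0.066). Il7 fell by 1.25 (adjusted p = 0.0040 by edgeR), at 3.48, 3.88, 4.58 and 6.85 CPM against 8.49, 16.6, 5.48 and 22.7 CPM, but not with that reference (-0.09, adjusted p = 0.89). Bmp2, a BMP ligand that was also put on this list, was lower with that reference instead (-0.31, adjusted p = 0.027). Il33 did not pass, at 122, 167, 287 and 213 CPM against 176, 194, 240 and 248 CPM (-0.11, SE 0.11).

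**Figure D3:**
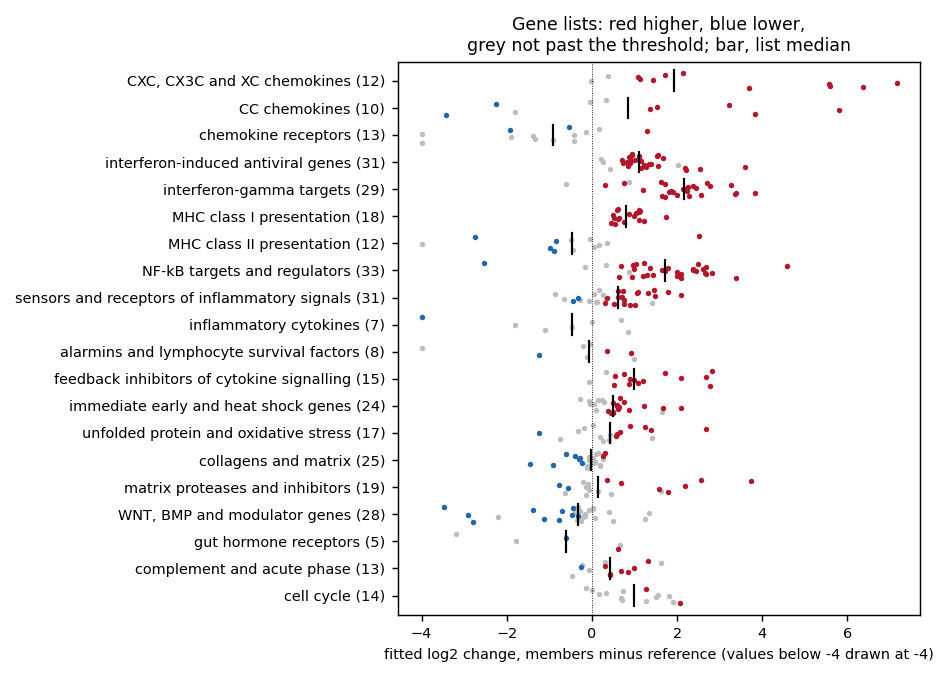
Fitted log2 changes of members minus reference for every tested gene of 20 gene lists (red higher, blue lower, grey not past the threshold), with list medians as black bars and the number tested in brackets. Interferon-gamma targets, NF-kB genes and CXC chemokines lie furthest to the right (medians 2.16, 1.71 and 1.93), while the WNT and BMP list lies left of 0 (-0.32). Further left lie the medians of chemokine receptors (-0.91), gut hormone receptors (-0.60), MHC class II (-0.47) and inflammatory cytokines (-0.46).

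In the matrix list and the WNT and BMP list, more genes fell than rose. Of 25 collagen and matrix genes, 2 rose and 7 fell, with a median of -0.01. Col3a1 was at 6451 ± 533 CPM in members and 7146 ± 302 in reference cells (SD, n = 4), and did not pass. It was called lower with the reference free of Ptprc and Prox1 UMIs (log2 change -0.21, adjusted p = 0.041 by edgeR). Eln, the elastin gene, was at 259, 314, 333 and 467 CPM against 477 to 593 CPM (-0.62, SE 0.09), and the basement membrane chains Col4a5 and Col4a6 fell by 0.92 and 1.45. The rises of Tnc (0.32) and Bgn (0.25) did not stand with the reference free of Ptprc and Prox1 UMIs, where 0 rose and 8 fell. Over the settings tried, 0 to 6 genes of that list were higher and 0 to 8 lower. Of 28 WNT, BMP and modulator genes, 10 fell and none rose, with a median of -0.32, and over the settings tried 2 to 13 were lower. Dkk2, a secreted WNT antagonist, was at 133, 191, 263 and 216 CPM in members and at 443, 368, 686 and 656 CPM in reference cells, with no overlap (-1.38, SE 0.11, adjusted p = 9.0e-08 by edgeR). Rspo2, which strengthens WNT signals, fell by 0.70 and Sfrp1 by 0.44, while Grem1, the BMP antagonist that sustains crypt stem cells, did not pass (509 ± 104 and 592 ± 105 CPM). Lgr5 and Bmp7 fell from mean reference levels of 6.34 and 2.78 CPM, with 3 and 2 UMIs in all members. Of 19 matrix proteases and inhibitors, 7 rose and 2 fell. Mmp10, stromelysin-2, was at 1187, 689, 600 and 1243 CPM against 113 to 418 CPM (1.78, SE 0.18), Timp1 rose by 2.19, and the serpins Serpina3f and Serpina3g, which have close paralogs, by 3.74 and 2.55. Of 13 complement and acute phase genes, 7 rose and 1 fell, led by Cp (1.31), Cfb (0.98), C2 (0.84) and C3 (0.69). Over the settings tried, 2 to 9 genes of that list were higher, fewest with no library block.

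Stress genes and hormone receptors moved less evenly. Of 24 immediate early and heat shock genes, 15 rose and none fell, with a median of 0.50. Egr2 rose by 2.10 and Junb by 0.86, while Fos was at 1285, 1333, 1888 and 1842 CPM against 1209, 1045, 1579 and 858 CPM (0.49, SE 0.12). Over the settings tried, the count of higher genes in that list ran from 6 to 18. These genes respond to tissue digestion as well, and the part of the digestion in them was not tested. Of 17 genes of the unfolded protein and oxidative stress list, 7 rose and 1 fell, with the metallothioneins Mt2 (405, 258, 395 and 188 CPM against 30.9 to 70.5 CPM, 2.67) and Mt1 (1.39) foremost. Of 5 gut hormone receptors tested, Glp2r, the receptor of glucagon-like peptide 2, was at 48.8, 58.2, 84.4 and 48.5 CPM in members and at 37.0, 38.8, 52.0 and 34.8 CPM in reference cells (0.60, SE 0.10, adjusted p = 0.00036 by edgeR), higher in 4 of 4 libraries. Its call was lost with no library block (0.63), with the replicate block in place of library (0.63) and after thinning to 2500 UMIs (0.43). Vipr2 fell by 0.60. Of 14 cell cycle genes, Mki67 and Stmn1 were higher, from UMIs held by few cells. In that list, 0 genes were higher without either one of the proximal replicates, by limma-voom, by DESeq2 or with the top cell of each gene left out, and 6 were higher without distal replicate 1.

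Most of the largest falls marked other cell types. Reln, Lyve1, Mmrn1, Aqp1, Flt4, Kdr, Ccser1, Ccl21a, Iglc1 and Jchain were the 10 largest among genes at 50 CPM or more, of which Reln, Lyve1, Mmrn1, Flt4 and Ccl21a are lymphatic and Iglc1 and Jchain are plasma cell genes. Reln was at 15.7, 17.5, 4.96 and 35.4 CPM in members and at 184, 296, 59.3 and 400 CPM in reference cells (-3.60, SE 0.12). With the reference free of Ptprc and Prox1 UMIs, its log2 change was -0.01 (adjusted p = 0.98), and of the 10 only Iglc1 still fell (-1.86, adjusted p = 5e-06). Jchain stood at 548, 70.9, 39.0 and 31.4 CPM in members, and in proximal replicate 1 a single member held 536 of its UMIs.

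Motifs before the gene starts were counted for the same sets, as a description with no test. Of 12535 tested genes with a window, 3.18% held an ISRE, 7.31% a GAS and 5.50% an NF-kB consensus. Of 1031 genes higher in members, the shares were 7.66%, 10.7% and 11.8%, and of 1161 genes lower they were 1.98%, 7.67% and 5.94%. In the interferon-gamma list, 10 of 16 genes with a window held an ISRE and 8 held a GAS. In the antiviral list, 9 of 20 held an ISRE and 4 a GAS. In the NF-kB list, 10 of 25 held the NF-kB consensus and 1 an ISRE. Of 17 collagen and matrix genes, none held any of the 3.

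Cells with only 1 of the gate chemokines were described beside the members. They were chosen after the data had been seen, by 3 or more UMIs of 1 chemokine and 0 of the other under the same Pdgfra, Ptprc and Prox1 limits. Cells with Cxcl10 and no Ccl2 UMI numbered 264, 273, 617 and 301, and cells with Ccl2 and no Cxcl10 UMI numbered 64, 90, 180 and 119. Both were compared with the same reference cells as the members, which they share, and the latter cells are themselves in the reference. Cxcl10 and Ccl2 set these cells apart, so those genes were not tested. Cxcl10 is itself induced by interferons, so a limit of 0 Cxcl10 UMIs also selects on the interferon lists, and their counts in these cells are descriptions of cells chosen in that way. The limit of 3 or more UMIs of Cxcl10 or of Ccl2 may also select on the NF-kB list in both kinds of cell. The part of that choice was not tested. With Cxcl10 alone, 929 of 18103 genes were higher (5.13%) and 625 lower (3.45%). With Ccl2 alone, 718 of 17675 were higher (4.06%) and 747 lower (4.23%).

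In cells with Cxcl10 alone, 30 of 31 antiviral genes (median 1.07) and 26 of 29 interferon-gamma targets (median 1.51) were higher. In cells with Ccl2 alone, 1 of 31 (median -0.02) and 6 of 29 (median 0.04) were higher. Ifit1 was at 101, 36.2, 81.8 and 62.5 CPM with Cxcl10 alone (log2 change 2.66, SE 0.15) and at 9.86, 7.30, 9.41 and 10.1 CPM with Ccl2 alone (-0.25, SE 0.22), where every library lay below those with Cxcl10 alone. Gbp4 changed by 2.17 (SE 0.22) and -0.14 (SE 0.23). NF-kB genes were higher in both, 26 of 33 (median 1.01) and 27 of 33 (median 0.93), as with Nfkbia (1.33 and 1.27), Tnfaip3 (2.02 and 1.72) and Il6 (2.03 and 1.86). The immediate early and heat shock list was higher in both, 22 of 24 genes each, with medians of 1.25 and 1.14. MHC class I genes were higher in 12 of 18 and 2 of 18. Ccl7, next to Ccl2 on chromosome 11, rose by 1.83 (SE 0.31) with Cxcl10 alone and by 4.22 (SE 0.31) with Ccl2 alone, and Cxcl9, next to Cxcl10, by 3.46 (SE 0.22) and 2.02 (SE 0.15). The difference between these 2 kinds of cell was not itself tested.

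**Figure D4:**
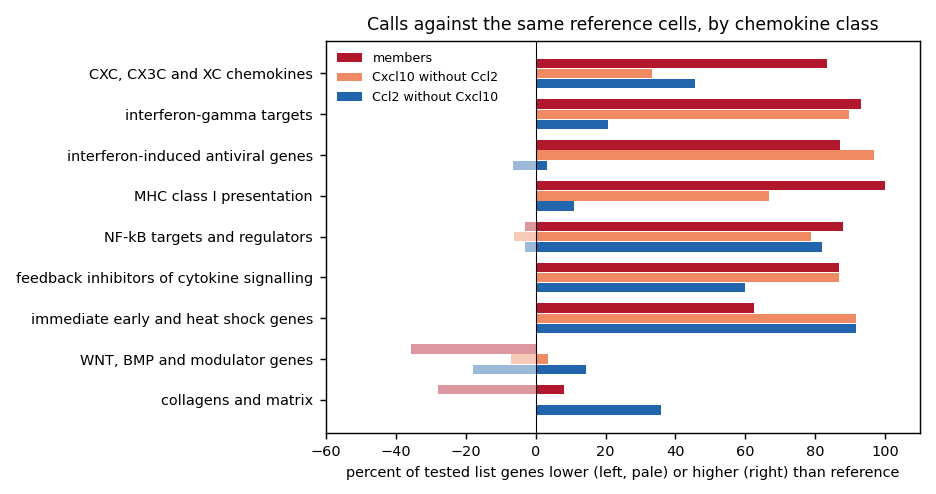
Percent of tested list genes called higher (right) or lower (left, pale) against the same reference cells, in members (red), cells with Cxcl10 and no Ccl2 UMI (orange) and cells with Ccl2 and no Cxcl10 UMI (blue). Antiviral and interferon-gamma genes are called higher in members and with Cxcl10 alone (27 and 30 of 31, 27 and 26 of 29), and in few genes with Ccl2 alone (1 of 31 and 6 of 29), whereas NF-kB genes are called in all 3. All 3 kinds of cell were chosen by UMIs of Cxcl10 or Ccl2, which may select on these lists.

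The members were also tested directly against the cells with Cxcl10 alone, with which they share no cell. Those cells differed from members in the level of Cxcl10 as well as in Ccl2, at 1112 ± 131 CPM of Cxcl10 against 3151 ± 769 CPM in members (SD, n = 4), and the part of either gene in the counts was not tested. Of 11634 genes, 634 were higher (5.45%) and 602 lower (5.17%) in members. Antiviral genes differed in few cases (2 of 31 higher, 2 lower, median -0.01), with Ifit1 at -0.14 (SE 0.22) and Isg15 at 0.06 (SE 0.09), while Ifit3 was lower (-0.70, SE 0.09). Interferon-gamma targets were higher in 22 of 27 (median 0.66), class I genes in 14 of 18 (0.50) and NF-kB genes in 21 of 30, with 4 lower (0.77). For chemokines, CXC genes were higher in 8 of 11 and CC chemokines in 5 of 7, with Cxcl2 (4.0, SE 0.34), Cxcl5 (3.86, SE 0.22) and Ccl7 (3.95, SE 0.37) foremost. The acute phase gene Saa3, of the NF-kB list, was higher in members as well (3.29, SE 0.08). Saa3 was at 65.2, 27.7, 124 and 40.3 CPM with Cxcl10 alone, every value below the lowest member library. Of 23 tested genes of the immediate early and heat shock list, members were lower in 16 and higher in none (median -0.58). Fos was at 1847, 2970, 3364 and 2756 CPM with Cxcl10 alone against 1285, 1333, 1888 and 1842 CPM in members (-0.79, SE 0.10), and Il6 was lower in members as well (-1.02, SE 0.13). Grem1, at 657, 1171, 924 and 1038 CPM with Cxcl10 alone against 380, 632, 529 and 495 CPM, was lower in members by edgeR (-0.91, SE 0.07, adjusted p = 5e-05).

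Cxcl9 was uneven among the members. Of 571, 251 had 3 or more Cxcl9 UMIs, 50 had 1 or 2 and 270 had 0, although the summed level was high in every library. Members with 3 or more were 48 of 102, 34 of 73, 112 of 252 and 57 of 144, or 47.1%, 46.6%, 44.4% and 39.6%, against 1.59% to 2.44% of reference cells and 4 of 702 plasma cell barcodes. The reference was limited to 0 Cxcl10 UMIs, and the part of that limit in its share was not tested. Of cells with Cxcl10 and no Ccl2 UMI, 81 of 264, 33 of 273, 94 of 617 and 45 of 301 had 3 or more. Gated cells had them in 65 of 190 in the cecum and 148 of 257 in the large intestine. The proximal and distal means differed by 4.80 percentage points (exact permutation p = 0.33, the smallest possible). The Cxcl9-high and Cxcl9-zero members are described without a test, since this split was chosen after the data had been seen.

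Ubd, Gbp4, Nrg1, Il34, Cxcl14 and Itga8, picked after their values had been seen, stood higher in the members with 3 or more Cxcl9 UMIs. Ubd was at 109, 89.3, 183 and 81.7 CPM in them and at 3.81, 6.69, 16.4 and 7.58 CPM in members with 0 Cxcl9 UMIs, and Gbp4 at 408, 355, 282 and 374 CPM and 160, 49.0, 59.7 and 48.7 CPM. The libraries did not overlap for either gene, but both were picked for this order. The share of all genes without such overlap was not counted. A split by Cxcl9 may also select on the interferon-gamma list, and that part was not tested. Nrg1, an ErbB ligand, was at 425, 105, 189 and 290 CPM with Cxcl9 and at 49.5, 13.4, 16.4 and 49.8 CPM without it, and Il34, a ligand of the Csf1 receptor, at 580 ± 160 and 96.5 ± 51.2 CPM (SD, n = 4). Cxcl14 (423 ± 167 and 69.3 ± 45.8 CPM) and Itga8 (198 ± 91.9 and 41.4 ± 28.6 CPM) stood in the same order. The opposite order held for Grem1, at 153, 196, 338 and 113 CPM with Cxcl9 and at 667, 1032, 749 and 828 CPM without it, and for Ackr4 (40.6 ± 16.8 and 167 ± 35.3 CPM), both trophocyte genes. Fos was at 571, 588, 1005 and 453 CPM with Cxcl9 and at 2126, 2218, 2601 and 2920 CPM without it, and Egr1 at 1165 ± 372 and 3461 ± 705 CPM. Isg15 (107 ± 37.3 and 107 ± 46.8 CPM), Nfkbia (1039 ± 280 and 1048 ± 209 CPM) and Irf1 (766 ± 49.6 and 779 ± 162 CPM) overlapped. Cxcl10 itself was at 4674, 3702, 6059 and 3247 CPM with Cxcl9 and at 2738, 1522, 2060 and 1838 CPM without it.

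**Figure D5:**
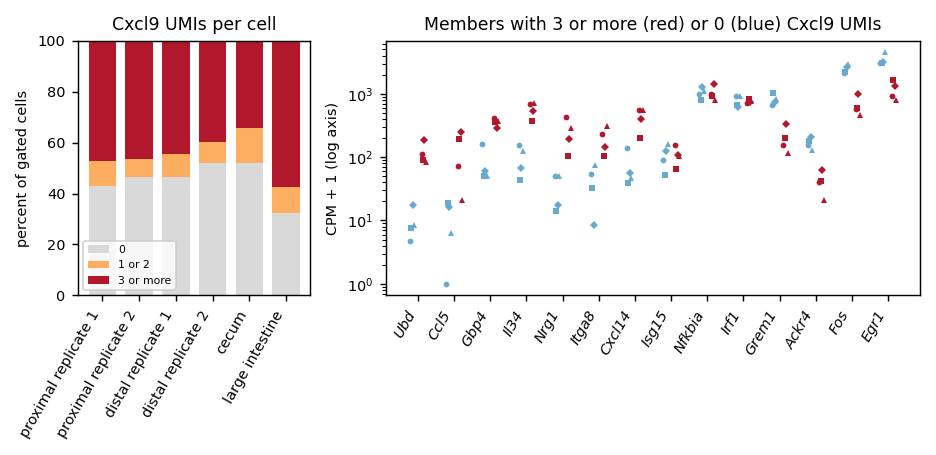
Left, percent of gated cells with 0, 1 or 2, or at least 3 Cxcl9 UMIs in each library. Right, levels (CPM + 1, log axis) per small intestine library in members with at least 3 (red) and with 0 (blue) Cxcl9 UMIs, where Ubd to Cxcl14 lie higher with Cxcl9 in every library, Isg15, Nfkbia and Irf1 overlap, and Grem1 to Egr1 lie lower. The genes were picked after their values had been seen.

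The region was compared among the members, which the rule did not use. Of 10326 genes tested, 5 were higher (0.0484%) and 2 lower (0.0194%) in proximal than in distal members by edgeR, and 483 passed an unadjusted p of 0.05. With the replicate number as a block, 39 were higher and 24 lower. Same-numbered proximal and distal libraries carried the same hashtag antibodies, and the labels do not say that they share mice. The 5 higher genes, Top2a, Neil3, Mki67, Prc1 and Stmn1, are genes of dividing cells, and most of their UMIs lay in few members. Of 38 Top2a UMIs in proximal replicate 1, 37 lay in 1 member, and of 59 in proximal replicate 2, 30 lay in 1 member. With the member holding most UMIs of each gene left out in each library, 0 genes were higher and 2 lower. The counts moved with the libraries, with 27 higher and 19 lower without proximal replicate 1, 55 and 17 without proximal replicate 2, 0 and 1 without distal replicate 1, and 6 and 5 without distal replicate 2. The 2 lower genes were Hoxc8 and Has1. Hoxc8, a positional transcription factor, was at 9.58, 7.77, 88.2 and 87.9 CPM in members (-3.38, SE 0.28, adjusted p = 0.0058) and showed the same order in reference cells, at 16, 8.94, 94.7 and 98.6 CPM. Has1, which makes hyaluronan, was at 54.0, 52.4, 167 and 191 CPM in members (-1.79, SE 0.22, adjusted p = 0.027), and at 44.4, 40.5, 59.1 and 41.1 CPM in reference cells.

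Whether the difference between members and reference cells itself depended on the region was tested by the interaction in edgeR, and the log2 change of members against reference was more positive or less negative in the proximal small intestine for 43 of 17726 genes (0.243%) and in the distal one for 39 (0.22%). With the top cell of each gene left out, the 43 became 13. Cxcl9 was among the first, with a log2 difference of 0.88 (SE 0.18, adjusted p = 0.00036), and Ccl7 (-0.94, SE 0.20, adjusted p = 0.0019) and Has1 (-1.55, SE 0.20, adjusted p = 4.8e-11) among the second. Without distal replicate 2, the genes of the first kind numbered 20, and without proximal replicate 2 they numbered 78. Without proximal replicate 1, those of the second kind numbered 67. By limma-voom, 0 genes passed in either direction, with 888 at an unadjusted p under 0.05. The region test gave 0 by limma-voom as well, with 452 at an unadjusted p under 0.05.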

How the data were processed

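Live tdTomato+ lamina propria cells were profiled with the Chromium 3′ kit in 6 libraries. The authors deposited raw UMI counts per gene and barcode (Cell Ranger 8.1.0 per the labels, 8.0.1 in the matrix header, on mm39 with the tdTomato sequence), before their correction for free RNA and removal of doublets. Hashtag features were kept apart from the 33697 genes. Total gene UMIs were 109675337 to 206827504 per library. Barcodes were kept with 1000 to 7500 genes, 2500 to 40000 gene UMIs and under 10% mitochondrial UMIs.

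UMIs were summed per library and class, the 5 gate genes were taken out, and the sums were tested with edgeR 4.0.16 (quasi-likelihood, TMM, filterByExpr with a minimum count of 10, library as a block, Benjamini-Hochberg threshold 0.05) in R 4.3.3. The SE is the absolute log2 change divided by the root of F. CPM scale the UMIs of each sum to the same total, and levels are compared within a gene. The region test had no block. A 3′ tag count does not scale with gene length. limma 3.58.1 (limma-voom), DESeq2 1.42.0, other gates, depths, doublet and hashtag filters, no low count filter and each library left out were alternatives. The scripts were tested on simulated data. No column of per-sample values was left unused.

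The members and gene lists were chosen with earlier results of these data known. Named genes were the 10 largest rises and falls among called genes of one direction in all libraries at 50 CPM or more, up to 4 called and 2 uncalled genes per list, up to 5 per direction of the region test, and Tslp, tdTomato and Glp2r. Other genes were named for their roles after their values had been seen. The comparisons of cells with only 1 gate chemokine, the split by Cxcl9 and the fit without the top cell of each gene were added after seeing the data. Some items are not reported here.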

Additional observations from a re-analysis of the deposited data

Results flagged for a closer look

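In 4 of 145 values tested, 1 library stood apart from the other 3, by the share of the range that its gap took (Dixon's 95% limit). Chance flags about 1 in 20 such sets. For Jchain (ratio 0.881), the log2 difference of members and reference (CPM + 1) was -0.16 in proximal replicate 1 and -3.02, -3.41 and -3.36 in the others. For Col4a6 (0.933), distal replicate 1 stood at -2.54 and the others at -0.82, -0.70 and -0.69. For Psmb10 (0.845), distal replicate 2 stood at 0.80 and the others at 1.18, 1.12 and 1.15. For Hoxc8 (0.863), proximal replicate 1 stood at -0.69 and the others at -0.18, -0.10 and -0.16.

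The difference between members and reference cells differed between regions by the interaction test in edgeR for 14 named genes. Values are the proximal minus the distal log2 change. The rise in members was larger in the proximal libraries for Cxcl9 (0.88), Saa3 (0.95) and Serpina3g (0.67). The fall was smaller there for Iglc1 (2.02) and Jchain (2.04), where 1 member of proximal replicate 1 held 536 Jchain UMIs. The log2 change was also more positive there for the genes of dividing cells, Top2a (7.54), Neil3 (5.82), Mki67 (4.67), Prc1 (4.54) and Stmn1 (3.02). The fitted rise was larger in the distal libraries for Ccl7 (-0.94), Nrg1 (-0.99) and Has1 (-1.55). The smallest rise of Ccl7 was in proximal replicate 2, at 42.7 CPM in members and 2.80 in reference cells. Proximal replicate 1 stood at 145 and 2.02 CPM and distal replicate 2 at 219 and 3.74 CPM. Nrg1 was at 246, 74.7, 103 and 163 CPM in members and at 81.0, 89.9, 22.5 and 64.9 CPM in reference cells. In proximal replicate 2, Nrg1 did not rise. The fitted fall of Ccl21a was larger in the proximal libraries (-1.63), but in distal replicate 1 a single member held 57 of the 75 Ccl21a UMIs. Against the reference free of Ptprc and Prox1 UMIs, Ccl21a did not fall (0.47, adjusted p = 0.33 by edgeR).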

How the results depend on the processing

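Of the values of named genes over all alternatives, 2158 kept their side of the threshold, 62 newly passed, 132 no longer passed and 14 reversed. Genes such as Ciita, uncalled in both fits, could change sign and still count among the 2158. All reversals came with the reference free of Ptprc and Prox1 UMIs, where the log2 changes were 0.51 for Lyve1, 0.22 for Mmrn1, 0.066 for Aqp1, 0.22 for Flt4, 0.12 for Ccser1, 0.47 for Ccl21a, 1.18 for Ackr2, 0.65 for Cd86, 0.51 for H2-Eb1, 0.67 for H2-Aa, 1.13 for H2-Ab1, 2.13 for Lcn2, 0.027 for Nqo1 and 0.048 for Wnt2. Genes higher in members numbered 779 with no library block and 896 after thinning to 2500 UMIs. Genes lower numbered 862 by limma-voom, 1034 by DESeq2, 594 with no library block, 870 with the replicate block in place of library and 932 after thinning. Leaving out 1 library gave 972 to 1270 higher and 1042 to 1404 lower, both fewest without distal replicate 1. Upper-quartile scaling moved the median log2 change by -0.02 and DESeq2 size factors by 0.05.

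In the region test, 0 genes were higher with the top cell of each gene left out, 0 higher and 0 lower by limma-voom, 12 and 5 by DESeq2, 91 and 56 with no filter, and 10 and 6 with 1 hashtag only. Leaving out 1 library gave 0 to 55 higher and 1 to 19 lower. With the replicate block there were 39 and 24. The labels do not tie same-numbered libraries, and the replicate differences of the 2 regions correlated at -0.02 in members and 0.56 in reference cells over 10326 genes. In the interaction, 13 genes had a more positive proximal change without the top cells, limma-voom gave 0 and 0, and leaving out 1 library gave 20 to 78 and 34 to 67. The difference in the share of members ran from -0.684 to -0.210 percentage points with 1 library left out. The causes were not tested. Low member UMIs limit genes below a few CPM.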
